A study of Mus musculus with 6 samples.

Results

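Genes that mark newborn neurons and their precursors were read in hippocampal RNA of p300-deficient heterozygous mice (p300+/-) and wild-type littermates. The 10 genes were Sox2, Neurog2, Eomes, Mki67, Top2a, Neurod1, Igfbpl1, Sox4, Sox11 and Dcx. They were chosen by name, and every probe set annotated to a single gene among them was taken, which gave 30 of the 45037 probe sets tested. Each genotype had 3 arrays. The mice were 3-month-old females, C57BL/6 in both groups. Each array (Affymetrix Mouse Genome 430 2.0) read equal amounts of RNA pooled from the hippocampi of 4 mice, so that 12 mice of each genotype were used. The labels call the pools independent biological replicates and do not describe the p300 allele further. Animals within a pool cannot be told apart. Arrays are named here by genotype and replicate number, as p300+/- 3 or wild-type 2.

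In the adult hippocampus, neural stem cells at the inner edge of the dentate gyrus divide and give rise to granule neurons. The cells pass through a series of transcription factors, from SOX2 in stem cells through Neurogenin 2 and TBR2 (the product of Eomes) in committed progenitors to NEUROD1, SOX4 and SOX11 in young neurons, which also make the microtubule-binding protein doublecortin (Dcx). p300, encoded by Ep300, is a lysine acetyltransferase and transcriptional coactivator. These cells are a small share of the tissue, and in bulk RNA fewer cells of a type and less RNA per cell cannot be told apart.

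Each value was a log2 intensity relative to the probe set's own median over the 6 arrays, so that values can be compared between arrays and not between probe sets. A coarse level class was read from the spacing of the stored numbers (log2 intensity from 2 to 4, from 4 to 8 or from 8 to 16). Of the 30 probe sets 22 were in the middle class, 6 in the highest and 2, both of Sox4, in the lowest. Of all probe sets tested 53.53% were in the middle class, 27.9% in the highest and 18.5% in the lowest. The highest class held probe sets of 5 genes, namely Sox2, Neurod1, Sox4, Sox11 and Top2a. Ep300 itself lay at -0.26, -0.22 and -0.50 in p300+/- pools, against 0.22, 0.38 and 0.40 in wild-type pools, with a difference (log2 fold change) of -0.66 ± 0.13 (SE, n = 3 each; limma, adjusted p = 0.9999). Whether this probe set (1434765_at) reads the altered stretch of the gene was not tested. Of 13 measured genes that mark hippocampal tissue, such as Prox1 and Camk2a, 8 had a probe set in the highest class. The share of all genes with such a probe set was not computed, here or for the microglia markers below. The arrays p300+/- 3 and wild-type 2 had the widest spread over all probe sets, with SDs of 0.29 and 0.331, and the other arrays had SDs of 0.182 to 0.207. Their deviations from the group means were correlated across probe sets at 0.65, and probe sets are not independent replicates.

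No precursor or immature neuron gene differed between the genotypes past the threshold. Of the 30 probe sets 0 passed an adjusted p of 0.05, as did 0 (0%) of all probe sets tested (limma, Benjamini-Hochberg adjustment over 45037 probe sets). The adjusted p of every member was 0.9999. At an unadjusted p under 0.05 there was 1 member probe set, 1453125_at of Sox11, beside 550 of all probe sets (1.22%). It was lower in p300+/-, as were 0.451% of all probe sets at that limit, while 0.77% were higher. Values were lower in p300+/- for 20 of the 30 probe sets (66.7%), where 48.3% of all probe sets were lower. Sox4 had 8 of the 30, of which 6 were lower, and Sox11 had 6, of which 5 were lower. Probe sets of the same gene are not separate units. The median log2 fold change was -0.059 over the members and 0.0057 over all probe sets. In 23 of the 30 the log2 fold change was within 0.2 of 0, and the share of all probe sets within that limit was not computed. The median absolute log2 fold change was 0.14 over the members and 0.089 over all probe sets. The 95% interval included 0 for 29 of the 30. Across all members the intervals reached from -0.91 to 0.73. The median standard error was 0.17 over the members and 0.15 over all probe sets.

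**Figure D1:**
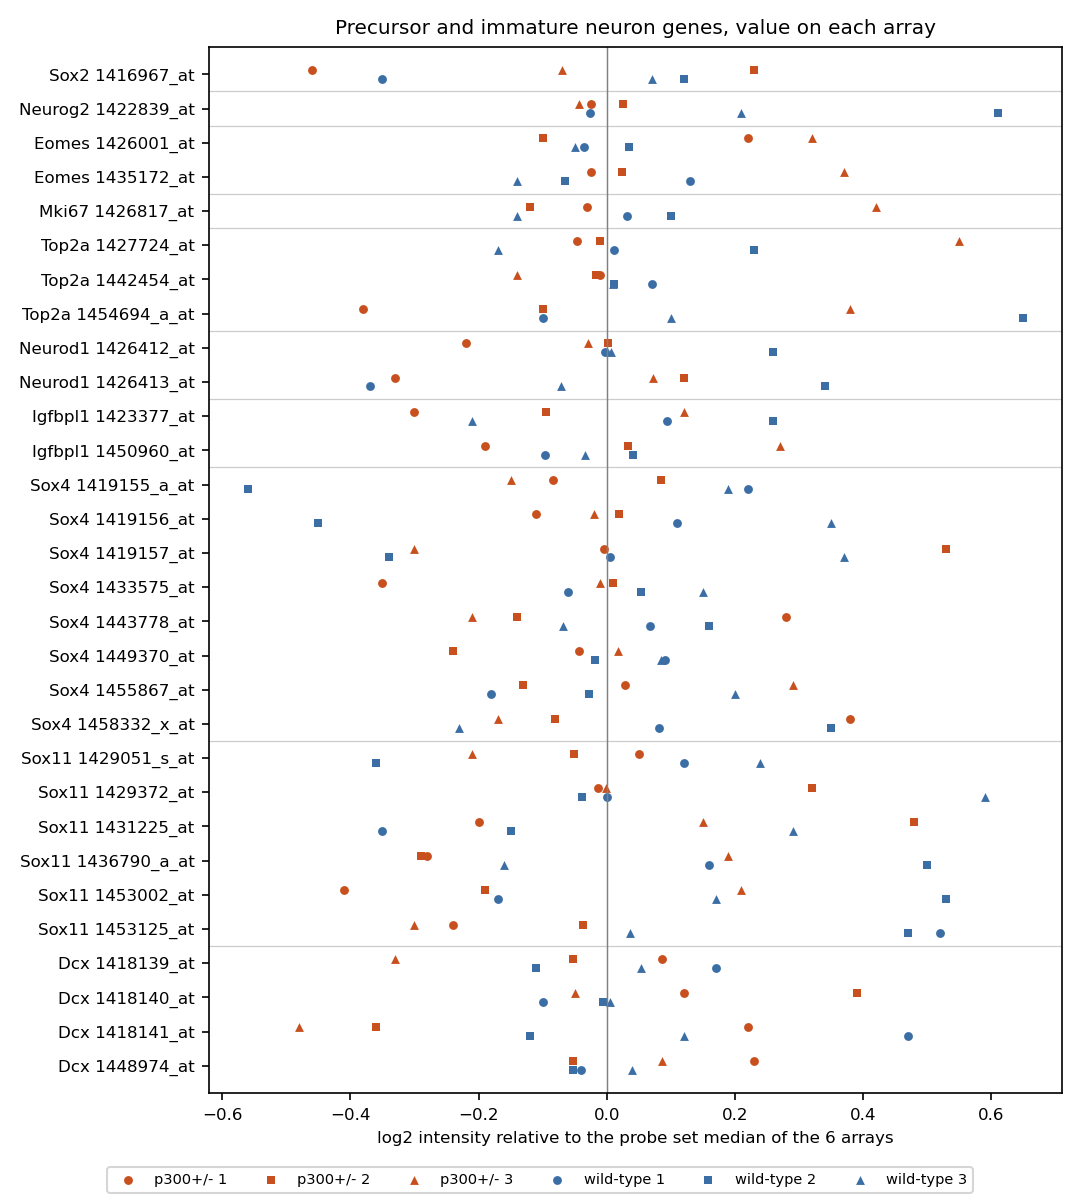
Value of each of the 30 probe sets on each array (log2 intensity relative to the probe set median), with p300+/- pools in orange above wild-type pools in blue; symbols mark the replicate number. In 28 of the 30 rows the orange and blue points overlap, and 1453125_at of Sox11 and 1442454_at of Top2a are the rows where they do not.

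**Figure D2:**
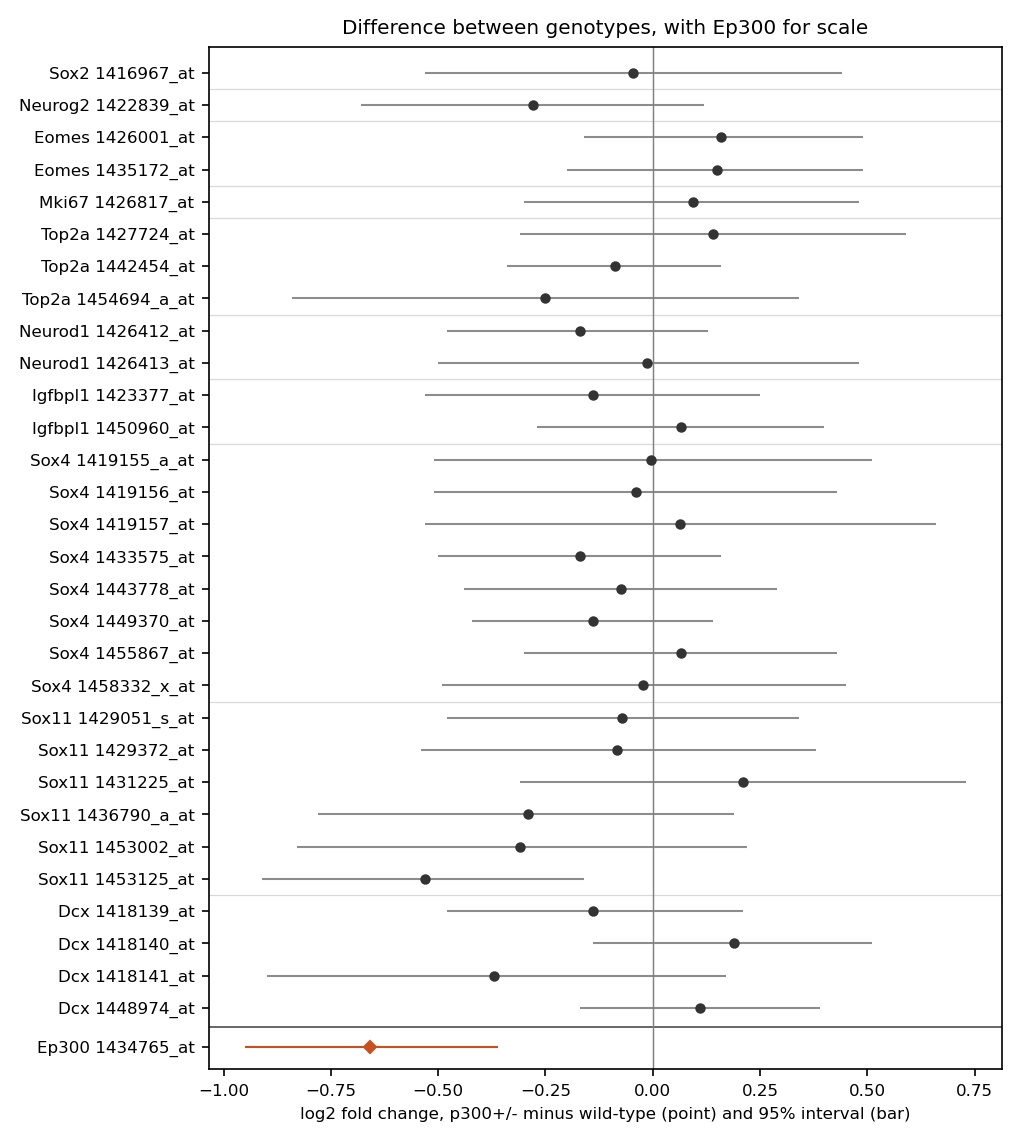
Log2 fold change of p300+/- over wild-type for each probe set (point) with its 95% interval (bar, limma, n = 3 each), and Ep300 at the bottom for scale. Every interval but that of Sox11 1453125_at includes 0 among the members, and the Ep300 interval runs from -0.95 to -0.36.

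The genotypes did not overlap in 2 member probe sets. In both, each p300+/- value was under every wild-type value, as in 2.2% of all probe sets, and 0 members had the reverse order (3.19% of all; 5.39% for either order). These were 1453125_at of Sox11 and 1442454_at of Top2a, and only the first had a sizeable difference. The Top2a probe set had a log2 fold change of only -0.087 ± 0.11 (SE).

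The genes of dividing cells are described with their promoters, whose part in the values was not tested. Mki67 and 2 of the 3 Top2a probe sets were high in p300+/- 3. The third Top2a probe set was lowest there. Top2a encodes the topoisomerase that untangles DNA before cells divide, and Mki67 encodes Ki-67, a protein that coats mitotic chromosomes and is used to count dividing cells. Promoters of late cell cycle genes commonly hold CCAAT boxes, bound by NF-Y, and a cell cycle homology region. RefSeq promoter windows (GRCm38.p6, from 250 bases before to 50 bases after the start of transcription) were found for 9 of the 10 members. The windows below lie on the minus strand, at chr11:99024140-99024439 for Top2a and at chr7:135716330-135716629 for Mki67. Capitals mark CCAAT and, for the homology region, the letters TTTGAA, each also where it stands on the opposite strand. The matches did not overlap.
Top2a: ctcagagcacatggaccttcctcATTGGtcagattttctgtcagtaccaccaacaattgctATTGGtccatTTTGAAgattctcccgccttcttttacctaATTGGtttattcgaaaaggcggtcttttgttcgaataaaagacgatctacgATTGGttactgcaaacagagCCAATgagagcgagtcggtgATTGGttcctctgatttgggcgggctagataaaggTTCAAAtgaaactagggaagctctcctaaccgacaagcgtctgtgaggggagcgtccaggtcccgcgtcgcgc
Mki67: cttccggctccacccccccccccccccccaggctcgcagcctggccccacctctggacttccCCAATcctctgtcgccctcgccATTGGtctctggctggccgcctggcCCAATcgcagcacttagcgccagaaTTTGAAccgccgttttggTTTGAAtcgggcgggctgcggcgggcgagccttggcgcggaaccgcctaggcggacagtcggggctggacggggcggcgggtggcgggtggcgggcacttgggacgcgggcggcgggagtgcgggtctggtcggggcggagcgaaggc
Both strands were searched. The Top2a window held 6 matches to CCAAT and 2 to TTTGAA, and the Mki67 window held 3 and 2. Of all 32851 RefSeq promoter windows, 37.4% held CCAAT, 17.9% held TTTGAA and 6.95% held both. Among the members Sox2 and Sox11 also held both motifs, with 1 match to each. A match describes these letters and is not a measured binding site.

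Mki67 lay at -0.031, -0.12 and 0.42 in p300+/- pools, against 0.031, 0.10 and -0.14 in wild-type pools (1426817_at). The groups overlapped, and p300+/- 3 was the highest of the 6 arrays. The log2 fold change was 0.094 ± 0.17 (SE), a ratio of 1.07 with a 95% interval of 0.814 to 1.40. It was -0.071 without p300+/- 3. Top2a 1427724_at had nearly the same pattern, at -0.047, -0.011 and 0.55 in p300+/- pools and 0.011, 0.23 and -0.17 in wild-type pools. Here too p300+/- 3 was highest, followed by wild-type 2. Its log2 fold change of 0.14 ± 0.19 (SE) became -0.055 without p300+/- 3.

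Top2a 1454694_a_at was also high on those arrays, at -0.38, -0.10 and 0.38 in p300+/- pools and -0.10, 0.65 and 0.10 in wild-type pools. Wild-type 2 was highest in this case, and the log2 fold change was -0.25 ± 0.25 (SE). It was -0.034 without wild-type 2 and -0.46 without p300+/- 3. The remaining probe set of Top2a, 1442454_at, lay at -0.010, -0.017 and -0.14 in p300+/- pools and 0.071, 0.011 and 0.010 in wild-type pools. It was lowest in p300+/- 3, where the other Top2a probe sets were high, and it was the only Top2a probe set in the highest level class. The difference between genotypes had both signs among the Top2a probe sets, from -0.25 to 0.14. The mean over the 3 probe sets gave a log2 fold change of -0.067 ± 0.15 (SE) with a 95% interval of -0.40 to 0.27.

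The median of the 4 probe sets of Mki67 and Top2a was 0.40 in p300+/- 3 and 0.17 in wild-type 2, and between -0.066 and 0.021 on the other arrays. Microglia markers, of which 13 of 14 were measured and 10 had a probe set in the highest class, had medians on the same arrays of 0.40 and 0.24, and between -0.074 and 0.0079 on the others. Over all p300+/- arrays the microglia median ran from -0.048 to 0.40, and over wild-type arrays from -0.074 to 0.24. Hippocampal tissue markers went the other way, at -0.28 in p300+/- 3 and -0.32 in wild-type 2, and between -0.033 and 0.15 elsewhere. The part of these other cells in the values of Mki67 and Top2a was not tested. Of 30 other cell cycle genes 29 were measured by 69 probe sets, with 34 higher and 35 lower in p300+/- and 0 passing in either direction. Their median log2 fold change was -0.0026, and their array medians were 3.8e-05 in p300+/- 3 and 0.16 in wild-type 2, the highest of the 6. The difference between these profiles and those of Mki67 and Top2a was not tested. The smallest unadjusted p in that list belonged to Ccnb2, the gene of cyclin B2, at -0.29 ± 0.12 (SE; limma, adjusted p = 0.9999). Mcm5, a subunit of the helicase that opens replication origins, followed at 0.23 ± 0.11, and 1 of its 3 probe sets had that sign.

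Sox2, the transcription factor that maintains neural stem cells and is also present in astrocytes, was read by 1 probe set (1416967_at). It lay at -0.46, 0.23 and -0.070 in p300+/- pools, against -0.35, 0.12 and 0.070 in wild-type pools. The groups overlapped throughout, and array 1 of each genotype was low. The log2 fold change was -0.047 ± 0.21 (SE), with a 95% interval of -0.53 to 0.44. It was 0.13 without p300+/- 1 and -0.21 without p300+/- 2. Of the other genes that mark neural stem cells, all 18 were measured by 49 probe sets. Of these 25 were higher and 24 lower, with a median log2 fold change of 0.0042 and 0 passing. The smallest unadjusted p were those of the RNA-binding protein gene Msi1 at 0.30 ± 0.14 and the glutamate transporter gene Slc1a3 at 0.34 ± 0.19. The Slc1a3 value came from 1 of 6 probe sets, and the other 5 had the opposite sign. Astrocyte markers, which share Gfap and Slc1a3 with that list, had a median of -0.044 over 42 probe sets of 13 genes. Their medians ran from -0.015 to 0.012 over p300+/- arrays and from -0.018 to 0.016 over wild-type arrays. The astrocyte probe set with the smallest p was Slc1a2 1439940_at at -0.50 ± 0.21 (SE), followed by Gja1 1415801_at at 0.55 ± 0.27. The Slc1a2 sign was that of 4 of its 5 probe sets, and the Gja1 sign that of only 1 of 6.

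Among the committed progenitor factors Neurog2 and Eomes had differences on opposite sides of 0. Neurog2 encodes a proneural factor that starts glutamatergic neuron differentiation, and Eomes encodes the T-box factor TBR2 of intermediate progenitors. Neurog2 (1422839_at) lay at -0.025, 0.025 and -0.043 in p300+/- pools, against -0.026, 0.61 and 0.21 in wild-type pools. The p300+/- arrays lay close together, and wild-type 1 lay among them. The log2 fold change was -0.28 ± 0.17 (SE), a ratio of 0.823 with an interval of 0.625 to 1.08. It was -0.11 without wild-type 2.

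Both probe sets of Eomes were higher in p300+/- by nearly the same amount. The probe set 1426001_at lay at 0.22, -0.10 and 0.32 in p300+/- pools and -0.035, 0.035 and -0.049 in wild-type pools. The probe set 1435172_at lay at -0.024, 0.024 and 0.37 in p300+/- pools and 0.13, -0.065 and -0.14 in wild-type pools. The highest value of each was in p300+/- 3, and in each some p300+/- arrays lay within or below the wild-type range. The log2 fold changes were 0.16 ± 0.14 and 0.15 ± 0.15 (SE), and they were 0.076 and 0.027 without p300+/- 3. With the mean of both probe sets the value was 0.16 ± 0.13, with a 95% interval of -0.13 to 0.44. Of 12 other progenitor genes 11 were measured by 23 probe sets, 9 higher and 14 lower, with a median of -0.031 and 0 passing. Neurog1, a relative of Neurog2, was at -0.20 ± 0.13 in a probe set of the lowest level class, with the same sign in both probe sets. The cell cycle inhibitor gene Cdkn1c was at 0.48 ± 0.33. Cdkn1c lay at 0.029, -0.029 and 0.63 in p300+/- pools and -0.063, -1.0 and 0.25 in wild-type pools, so that p300+/- 3 and wild-type 2 were its extremes.

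Neurod1, a basic helix-loop-helix factor needed for the survival and maturation of new granule neurons, was slightly lower in both of its probe sets, which were in the highest level class. The probe set 1426412_at lay at -0.22, 0.0025 and -0.029 in p300+/- pools and -0.0025, 0.26 and 0.0065 in wild-type pools. The probe set 1426413_at lay at -0.33, 0.12 and 0.072 in p300+/- pools and -0.37, 0.34 and -0.072 in wild-type pools. Wild-type 2 was highest in both, and p300+/- 1 was low in both. The log2 fold changes were -0.17 ± 0.13 and -0.013 ± 0.21 (SE), and the second was 0.17 without wild-type 2. Igfbpl1, which encodes an insulin-like growth factor binding protein-like secreted protein found in new neurons, had probe sets of opposite sign. The probe set 1423377_at lay at -0.30, -0.094 and 0.12 in p300+/- pools and 0.094, 0.26 and -0.21 in wild-type pools. The probe set 1450960_at lay at -0.19, 0.034 and 0.27 in p300+/- pools and -0.096, 0.041 and -0.034 in wild-type pools. In both probe sets p300+/- 1 was the lowest array, and p300+/- 3 was the highest of its genotype. The log2 fold changes were -0.14 ± 0.17 and 0.065 ± 0.14 (SE), and the second was -0.051 without p300+/- 3.

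Sox11 had the lowest log2 fold change of any member and the widest disagreement between probe sets. SOX11 and SOX4 are closely related SoxC transcription factors that switch on neuronal genes, Dcx among them, in cells leaving the progenitor state. The Sox11 probe set 1453125_at lay at -0.24, -0.037 and -0.30 in p300+/- pools, against 0.52, 0.47 and 0.037 in wild-type pools. The genotypes did not overlap, and p300+/- 2 and wild-type 3 were nearest to each other. The group means were -0.19 ± 0.14 in p300+/- and 0.34 ± 0.26 in wild-type pools (SD, n = 3 each). The log2 fold change was -0.53 ± 0.16 (SE), a ratio of 0.691 with an interval of 0.532 to 0.898 (limma, unadjusted p = 0.012, adjusted p = 0.9999). It was the 61st smallest unadjusted p of the 45037. Only 1.22% of all probe sets were under 0.05, fewer than evenly spread p-values would give. The cause of that shortfall was not tested, and the rank does not measure the strength of the difference. With any single array left out, the log2 fold change stayed between -0.69 and -0.44.

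The other 5 probe sets of Sox11 overlapped between genotypes. The probe set 1453002_at lay at -0.41, -0.19 and 0.21 in p300+/- pools and -0.17, 0.53 and 0.17 in wild-type pools. The probe set 1436790_a_at lay at -0.28, -0.29 and 0.19 in p300+/- pools and 0.16, 0.50 and -0.16 in wild-type pools. Both were highest in wild-type 2 and high in p300+/- 3, like 1454694_a_at of Top2a, and their log2 fold changes were -0.31 ± 0.22 and -0.29 ± 0.21 (SE). Both were -0.13 without wild-type 2. The probe set 1431225_at, the only Sox11 probe set in the highest level class, had the opposite sign. It lay at -0.20, 0.48 and 0.15 in p300+/- pools and -0.35, -0.15 and 0.29 in wild-type pools. The difference was 0.21 ± 0.22 (SE) on the log2 scale. For this probe set p300+/- 2 was highest and wild-type 1 lowest, where 1453125_at had wild-type 1 highest. The probe sets 1429372_at and 1429051_s_at gave -0.083 ± 0.20 and -0.071 ± 0.18, and both were highest in wild-type 3 and lowest in wild-type 2. In wild-type 2 alone the 6 probe sets of Sox11 ran from -0.36 to 0.53. The log2 fold changes spanned 0.75 between the lowest and the highest, and 5 of 6 were below 0. The mean over the 6 probe sets gave -0.18 ± 0.11 (SE) with a 95% interval of -0.43 to 0.073 (limma, unadjusted p = 0.141, adjusted p = 0.9998 over 18193 genes).

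Sox4 was read by 8 probe sets, of which 6 were lower and 2 higher in p300+/-. All 8 log2 fold changes lay between -0.17 and 0.065. The probe set 1433575_at, in the highest level class, lay at -0.35, 0.010 and -0.010 in p300+/- pools and -0.060, 0.054 and 0.15 in wild-type pools. Its log2 fold change of -0.17 ± 0.14 (SE) was the lowest of the 8, and p300+/- 1 was its low array. The probe sets 1419155_a_at, 1419156_at and 1419157_at shared a low value in wild-type 2. The probe set 1419155_a_at lay at -0.084, 0.084 and -0.15 in p300+/- pools and 0.22, -0.56 and 0.19 in wild-type pools. For 1419156_at the values were -0.11, 0.019 and -0.019 in p300+/- pools and 0.11, -0.45 and 0.35 in wild-type pools. These probe sets were low on wild-type 2, where 1436790_a_at and 1453002_at of Sox11 were at their highest. Their log2 fold changes were near 0, at -0.0031 ± 0.22, -0.039 ± 0.20 and, for 1419157_at, 0.063 ± 0.25 (SE). The probe sets 1443778_at and 1458332_x_at, in the lowest level class, were highest in p300+/- 1, at 0.28 and 0.38, and gave -0.074 ± 0.16 and -0.023 ± 0.20. The remaining 1449370_at and 1455867_at gave -0.14 ± 0.12 and 0.065 ± 0.16. The mean over the 8 probe sets gave -0.040 ± 0.11 (SE), with a 95% interval of -0.29 to 0.21.

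**Figure D3:**
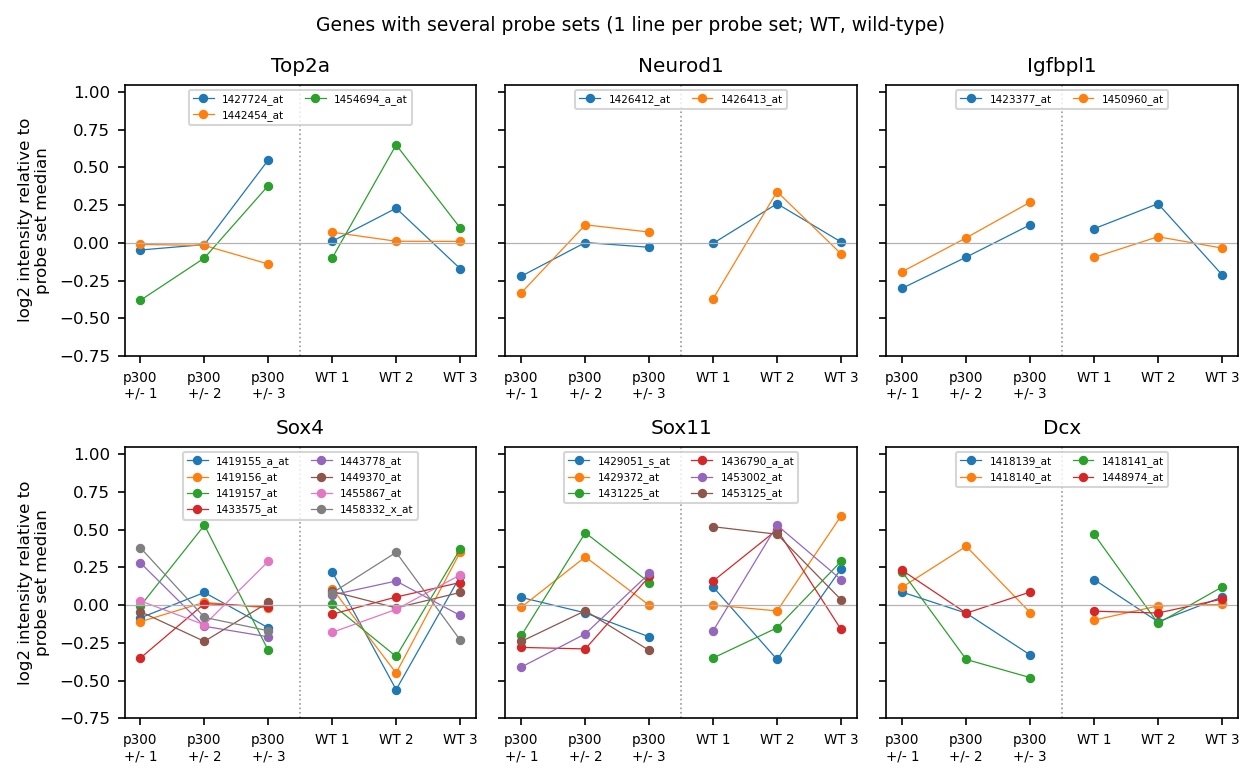
Values of each probe set (log2 intensity relative to the probe set median) on the p300+/- and wild-type (WT) arrays, for 6 genes with 2 or more probe sets. Thin lines join the values of a probe set within a genotype and carry no order of replicates; on wild-type 2 the Sox11 probe sets run from -0.36 to 0.53 and those of Sox4 from -0.56 to 0.35.

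Dcx, the standard marker of immature neurons, was read by 4 probe sets, with 2 lower and 2 higher in p300+/-. The probe set 1418141_at lay at 0.22, -0.36 and -0.48 in p300+/- pools and 0.47, -0.12 and 0.12 in wild-type pools. The probe set 1418139_at had the same order of p300+/- arrays, at 0.086, -0.053 and -0.33, and lay at 0.17, -0.11 and 0.053 in wild-type pools. Both were highest in wild-type 1 and lowest in p300+/- 3, and their log2 fold changes were -0.37 ± 0.23 and -0.14 ± 0.15 (SE). With a single array left out the first ran from -0.58 (without p300+/- 1) to -0.21 (without wild-type 1). The second ran from -0.23 to -0.023 (without p300+/- 3). The other probe sets leaned the opposite way. The probe set 1418140_at lay at 0.12, 0.39 and -0.049 in p300+/- pools and -0.099, -0.0051 and 0.0051 in wild-type pools. The difference was 0.19 ± 0.14 (SE) on the log2 scale, and 0.071 without p300+/- 2. The probe set 1448974_at lay at 0.23, -0.053 and 0.087 in p300+/- pools and -0.040, -0.052 and 0.040 in wild-type pools. The difference was 0.11 ± 0.12 (SE) on the log2 scale. In each of the 4 probe sets the genotypes overlapped. The mean over them gave -0.052 ± 0.13 (SE), a value with a 95% interval of -0.34 to 0.24. Of the 7 members with several probe sets, 5 had probe sets of both signs, namely Top2a, Igfbpl1, Sox4, Sox11 and Dcx, while Eomes and Neurod1 had a single sign.

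Grouped by stage, the 22 probe sets of the immature neuron members had a median log2 fold change of -0.072 and the 4 of the dividing cell genes 0.0032. The progenitor factors are not summarized, as Neurog2 (-0.28) and Eomes (0.16 and 0.15) had opposite signs. The array medians over all 30 probe sets were -0.037, -0.027 and -0.0055 in p300+/- pools, against 0.0079, 0.038 and 0.047 in wild-type pools. These medians did not overlap, but they lay within 0.047 of 0. How often the medians of such a list separate was not computed. The medians of the arrays over all probe sets ran from -0.0137 to 0.0231. With array medians set to 0, the median log2 fold change of the members was -0.061, beside -0.059 without that step. Of 28 other immature neuron genes 27 were measured by 70 probe sets, with 38 higher and 32 lower and 0 passing. Their median log2 fold change was 0.028, beside 0.0057 over all probe sets. The array medians of this list overlapped, at -0.0088, -0.017 and 0.023 in p300+/- pools and 0.0073, -0.028 and 0.038 in wild-type pools. The smallest unadjusted p there belonged to Ncam1, the adhesion molecule that carries polysialic acid on young neurons, at 0.25 ± 0.11 in 1 of 7 probe sets, 3 of which had that sign. This Ncam1 probe set, 1421966_at, was in the lowest level class. It lay at 0.19, 0.12 and 0.087 in p300+/- pools, against -0.087, -0.09 and -0.17 in wild-type pools, without overlap. Dclk1, a kinase related to doublecortin, followed at -0.30 ± 0.13 in 1 of 9 probe sets, 7 of which were below 0. In Dclk1 1424270_at the values were -0.13, -0.39 and -0.038 in p300+/- pools, against 0.13, 0.038 and 0.18 in wild-type pools, without overlap (limma, unadjusted p = 0.0502, adjusted p = 0.9999).

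**Figure D4:**
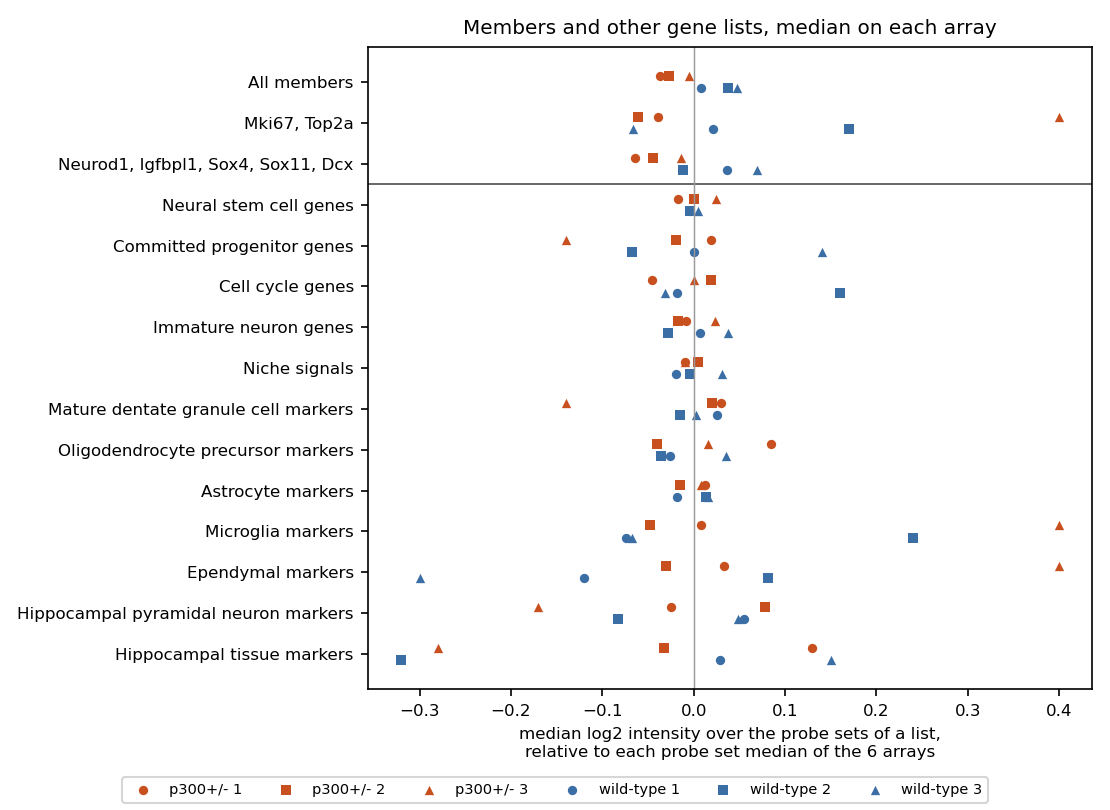
Median over the probe sets of a list on each array (log2 intensity relative to each probe set's median), with p300+/- pools in orange above wild-type pools in blue. Mki67 and Top2a, microglia markers and ependymal markers have their highest median in p300+/- 3, at 0.40 in each; choroid plexus markers, at -2.13 in wild-type 2, are not drawn.

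Signals of the stem cell niche and mature granule cells were compared in the same way. Of 30 genes for niche signals and their receptors 29 were measured by 76 probe sets, 34 higher and 42 lower, with a median log2 fold change of -0.029 and 0 passing. Igf1, a growth factor that promotes precursor division, was at 0.33 ± 0.12 (SE) in 1452014_a_at, and 2 of its 4 probe sets were above 0. Vegfa, the vascular growth factor, was at 0.43 ± 0.16 in 1451959_a_at and had the same sign in both probe sets. All 16 genes chosen for mature dentate granule cells were measured by 34 probe sets, 14 higher and 20 lower, with a median of -0.070, close to the median of the immature neuron members. Among them Calb1, the gene of calbindin, which new granule neurons gain as they mature, was at -0.36 ± 0.17 (SE). It lay at -0.049, -0.024 and -0.14 in p300+/- pools, against 0.024, 0.63 and 0.19 in wild-type pools, and 3 of its 4 probe sets were below 0. Pitpnm2, with the smallest unadjusted p of this list, was at 0.44 ± 0.18. It lay at 0.094, 0.65 and 0.055 in p300+/- pools, against -0.055, -0.17 and -0.28 in wild-type pools. Both of its probe sets were above 0. In this list the genotypes did not overlap in 1 probe set higher and 2 lower in p300+/-, beside 5.39% of all for either order. None of Igf1, Vegfa, Calb1 and Pitpnm2 passed (limma, adjusted p = 0.9999 for each).

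Markers of other cells that the dissected tissue could hold gave 0 passing probe sets in every list. Oligodendrocyte precursors, which also divide in the adult brain, had 14 probe sets higher and 11 lower over 12 of 13 genes, with a median log2 fold change of 0.026. Their smallest p belonged to Lhfpl3 at 0.32 ± 0.17 and the lineage factor gene Sox10 at 0.30 ± 0.16 (SE). The Lhfpl3 sign was that of 1 of its 2 probe sets, and the Sox10 sign that of all 3. Microglia markers had 10 higher and 9 lower and a median of 0.029, with Itgam at 0.23 ± 0.16 and Csf1r at 0.16 ± 0.12. Ependymal markers were higher in 15 of 16 probe sets over 11 genes, with a median of 0.26, and had array medians of -0.030 to 0.40 in p300+/- pools and -0.30 to 0.081 in wild-type pools. Mia was at 0.52 ± 0.14 and the dynein light chain gene Dynlrb2 at 0.70 ± 0.25. Choroid plexus markers were higher in all 21 probe sets over 13 of 15 genes, with array medians of -0.022 to 0.066 in p300+/- pools and of -0.12, -2.13 and 0.16 in wild-type pools. Cldn2 was at 0.43 ± 0.24 and Kl at 0.90 ± 0.52. Wild-type 2 was the lowest array for both, at -0.80 for Cldn2 and -2.13 for Kl. Pyramidal neuron markers had a median of -0.044, 7 higher and 13 lower, with Mpped1 at -0.19 ± 0.11 and Ccn3 at -0.28 ± 0.18. The hippocampal tissue list split into 16 higher and 17 lower, with a median of -0.019. Hpca was at 0.63 ± 0.29, with 0.15, 0.12 and -0.035 in p300+/- pools and -0.47, -1.21 and 0.035 in wild-type pools. Neurod2 was at 0.28 ± 0.14 in a probe set of the lowest level class. The part of these other cells in the members' values was not tested.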

How the data were processed

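Per the labels' protocols, RNA was hybridized to Mouse Genome 430 2.0 arrays, and the authors processed and normalized the data in GeneSpring GX. The version, the probe summarization and the filters used were not given in the sources used here. All of the deposited log2 values had a median of 0 in each of the 45037 probe sets tested (tolerance 1e-06), after 64 control probe sets were left out. The base was taken as 2, because the values lay on the binary grids that log2 intensities of 2 to 16 leave when stored in single precision. The grids gave the level classes, with 29 probe sets not assigned, and do not by themselves exclude another base. No detection calls were used. The number of arrays limits the precision.

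Probe sets were named through the platform annotation, updated by gene identifier to RefSeq GRCm38.p6. A single gene symbol was given to 34945 probe sets, several to 932 and none to 9160. Each probe set was fitted as p300+/- minus wild-type over 6 arrays (limma 3.58.1, lmFit and eBayes, R 4.3.3), two-sided, with Benjamini-Hochberg adjustment. The fit was also run on simulated data with independent noise on each array and added changes larger than any member's difference. Such noise lacks the deviations shared by p300+/- 3 and wild-type 2. The run therefore cannot tell how the fit behaves for the members on these arrays. An exact permutation of 3 against 3 arrays could not go below 0.1. The 10 members and 13 further lists (218 of 228 entries measured) were chosen with earlier results of these data known. Every member probe set was named, and from each other list the 2 genes with the smallest unadjusted p, as none passed. A few genes are in 2 lists. Remarks on single arrays were made after the values were seen. Alternatives were quantile normalization, array medians set to 0, robust moderation, array weights, a replicate block, left-out arrays, filters on level class and probe set type, a threshold of 0.1 and gene means. Figures were drawn with matplotlib 3.10.9.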

Additional observations from a re-analysis of the deposited data

How the results depend on the processing

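Under each alternative that was run 0 probe sets and 0 members passed, and the smallest adjusted p of a member was 0.974 (limma, without wild-type 2). At an unadjusted p under 0.05 the count over all probe sets was 550 in the reported fit, 1632 with array weights, 604 with the replicate block, 171 of 18193 with gene means, 1075 without both p300+/- 3 and wild-type 2, and from 475 to 1151 with a single array left out. The median log2 fold change of the members was -0.059. It was -0.092 with quantile normalization and from -0.088 (without p300+/- 2) to -0.0092 (without wild-type 3) with a single array left out, and the cause was not tested. The replicate block cannot change it in this balanced design. Deviations from the group means were correlated between genotypes at 0.61, -0.23 and -0.47 for replicate numbers 1 to 3. Such deviations sum to 0 within a genotype, so these values cannot settle whether replicate numbers pair the arrays.

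Of the 30 member probe sets 17 kept their sign under all 12 alternatives tried on them, and 13 changed it. Robust moderation and the replicate block are among the 12. Neither can change a log2 fold change in this balanced design, so the signs under them were fixed in advance. With quantile normalization the changed values were 0.0078 for Sox2, 0.061 for Neurod1 1426413_at and 0.019 for Sox4 1458332_x_at, and with array weights 0.089, 0.16 and 0.065 for the same probe sets. Without both p300+/- 3 and wild-type 2 they were 0.023 for Sox2, 0.11 for Neurod1 1426413_at, -0.019 for Mki67, 0.071 for Sox4 1443778_at, -0.015 for Igfbpl1 1450960_at, -0.061 for Sox4 1455867_at and 0.22 for Sox4 1458332_x_at. With a single array left out the ranges were -0.21 to 0.13 for Sox2, -0.071 to 0.20 for Mki67, -0.055 to 0.24 for Top2a 1427724_at, -0.18 to 0.17 for Neurod1 1426413_at and -0.051 to 0.18 for Igfbpl1 1450960_at. For Sox11 they were -0.25 to 0.049 (1429051_s_at) and -0.19 to 0.12 (1429372_at). For Sox4 they were -0.26 to 0.13 (1419155_a_at and 1419156_at), -0.16 to 0.25 (1419157_at), -0.22 to 0.019 (1443778_at), -0.049 to 0.17 (1455867_at) and -0.19 to 0.12 (1458332_x_at). Background correction and slide need scanner files and were not run, and moderation by trend needs levels and was not run.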
